A study of Mus musculus with 96 samples.

Results

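Transcripts of 7 enzymes of the mevalonate and sterol synthesis pathway were followed in mouse liver: Hmgcs1, Mvd, Idi1, Fdps, Sqle, Lss and Cyp51. They were named as a set of 7 genes out of the 24066 genes with 1 entry in the expression tables, and all 7 were read in each of the 8 arms and at each sampling time. All of them make cholesterol or its precursors. None of them takes up lipoprotein cholesterol, so the values below describe synthesis only.

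Pregnant C57BL/6J mice lived under alternating light and dark periods of 12 h each (control), or under such a cycle that was moved 8 h earlier every 5 days for the length of pregnancy only (phase-shifted). Livers of the mothers, of their fetuses, and of male offspring fed either of 2 diets, low-fat or high-fat, freely for 12 weeks from the age of 4 weeks were sequenced as polyA RNA. This gives 8 arms: control and phase-shifted mothers, fetuses of each, low-fat offspring of each and high-fat offspring of each. Every arm has 3 libraries at each of Zeitgeber times (ZT, hours after lights on in a standard cycle) 0, 6, 12 and 18, which is 12 libraries an arm and 96 in all. No genotype or drug differs between the groups, the offspring are all male, and the labels give neither the day of gestation nor the sex or pooling of the fetuses. The labels do not say that libraries of a group came from separate animals, so the p-values measure the spread between these libraries.

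The authors deposited FPKM, a fragment count scaled to the length of the transcript and to the size of the library. The read depth behind the values is unknown. The 8 arms came as 8 separate tables, and what differs by table for a single gene cannot be told apart from what differs by arm. Levels are given here as FPKM divided by a library factor computed within mothers, within fetuses or within offspring, and changes as differences of log2(FPKM + 1), a scale that understates changes of low genes. A gene is called where limma's adjusted p, by the Benjamini-Hochberg method over all genes tested, is under 0.05. Hepatocyte markers summed to between 24600 and 164000 FPKM in every library of the 8 arms, and none of the 6 was at 0 throughout. In bulk liver, fewer cells of a type and less RNA per cell cannot be told apart. Of the 48 offspring libraries, 5 had a median correlation under 0.95 with the other libraries of their own arm, taken over all times. They were low-fat control ZT0 replicate 2, low-fat phase-shifted ZT0 replicate 1 and ZT6 replicate 1, and high-fat control ZT0 replicate 1 and ZT12 replicate 2.

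Cholesterol is built from acetyl-CoA. Hmgcs1 makes HMG-CoA, Mvd turns diphosphomevalonate into isopentenyl diphosphate, Idi1 isomerises that unit to its allylic partner, and Fdps joins the units into farnesyl diphosphate, from which isoprenoids other than sterols are also made. Sqle adds oxygen to squalene, Lss closes the ring to lanosterol, and Cyp51 removes a methyl group from lanosterol on the way to cholesterol. These genes are known as targets of the sterol-regulated transcription factor SREBP2, and the liver is a main site of cholesterol synthesis, which in rodents varies over the day with feeding.

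Promoter sequence is shown for 3 members because the genes moved together across libraries, as described further on. RefSeq windows (GRCm38.p6) reaching 250 bases before the start site were at hand for 5 of the 7 members, and the part before the outermost annotated start is printed. Capitals mark matches on either strand to a sterol regulatory element core (TCACNCCAC), a CCAAT box (CCAAT) or a GC box (GGGCGG). Hmgcs1 lies on the plus strand at chr13:119690101-119690350, Lss on the plus strand at chr10:76531355-76531564 and Mvd on the minus strand at chr8:122443423-122443672.
Hmgcs1: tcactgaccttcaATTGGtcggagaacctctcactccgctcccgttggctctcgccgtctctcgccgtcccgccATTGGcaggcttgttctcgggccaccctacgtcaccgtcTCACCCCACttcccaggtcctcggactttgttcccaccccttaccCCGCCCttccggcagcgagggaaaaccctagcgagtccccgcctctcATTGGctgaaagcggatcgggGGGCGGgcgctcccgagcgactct
Lss: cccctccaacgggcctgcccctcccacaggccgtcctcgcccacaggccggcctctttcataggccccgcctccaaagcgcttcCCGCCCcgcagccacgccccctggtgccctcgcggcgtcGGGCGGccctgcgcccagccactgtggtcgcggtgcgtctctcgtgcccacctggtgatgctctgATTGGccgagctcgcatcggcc
Mvd: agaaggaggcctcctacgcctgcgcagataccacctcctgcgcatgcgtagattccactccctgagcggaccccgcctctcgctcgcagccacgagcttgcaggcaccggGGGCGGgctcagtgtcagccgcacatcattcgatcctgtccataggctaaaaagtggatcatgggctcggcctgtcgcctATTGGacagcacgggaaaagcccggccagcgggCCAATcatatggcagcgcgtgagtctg
The Hmgcs1 window held 1 sterol element core, which starts at position -137 from the RefSeq start site, with 3 CCAAT boxes and 2 GC boxes. The Lss window held 1 CCAAT box and 2 GC boxes, and the Mvd window 2 CCAAT boxes and 1 GC box. Among 32851 RefSeq promoters of 250 bases, 1.05% held the sterol core, 33.8% a CCAAT box and 32.7% a GC box. In the 5 member windows of 250 bases the sterol core was in Hmgcs1 alone, a CCAAT box and a GC box were in all 5, and an E-box (CACGTG, in 6.02% of promoters) was in none. In the part before the outermost annotated start, however, Idi1 held neither a CCAAT box nor a GC box, and Cyp51 held no CCAAT box. A match describes letters and is not a measured site, and a missing match says only that these letters are not in this window.

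Fdps was the most abundant of the 7 per length, followed by Hmgcs1 and Idi1, and this order of the top 3 was the same in all 8 arms. In low-fat offspring of control mothers, mean levels were 252 ± 91.3 FPKM for Fdps, 89.8 ± 43.8 for Hmgcs1, 50.2 ± 19.3 for Idi1, 27.2 ± 6.51 for Cyp51, 22 ± 9.6 for Sqle, 17.7 ± 13.7 for Mvd and 9.03 ± 2.69 for Lss (SD, n = 12). The steps from Cyp51 to Sqle and from Sqle to Mvd are smaller than the SDs of those genes. Lss was the lowest of the 7 in the mothers and in every offspring arm, whereas in both fetal arms Mvd was the lowest and Lss stood above it. Libraries of one group were far apart: within groups of 3 the highest library exceeded the lowest by a median of 1.58-fold for Hmgcs1 and 2.14-fold for Mvd, and by up to 14.2-fold for Mvd. That largest gap was in low-fat offspring of phase-shifted mothers at ZT18, where Mvd was 3.15, 6.91 and 44.6 FPKM.

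**Figure D1:**
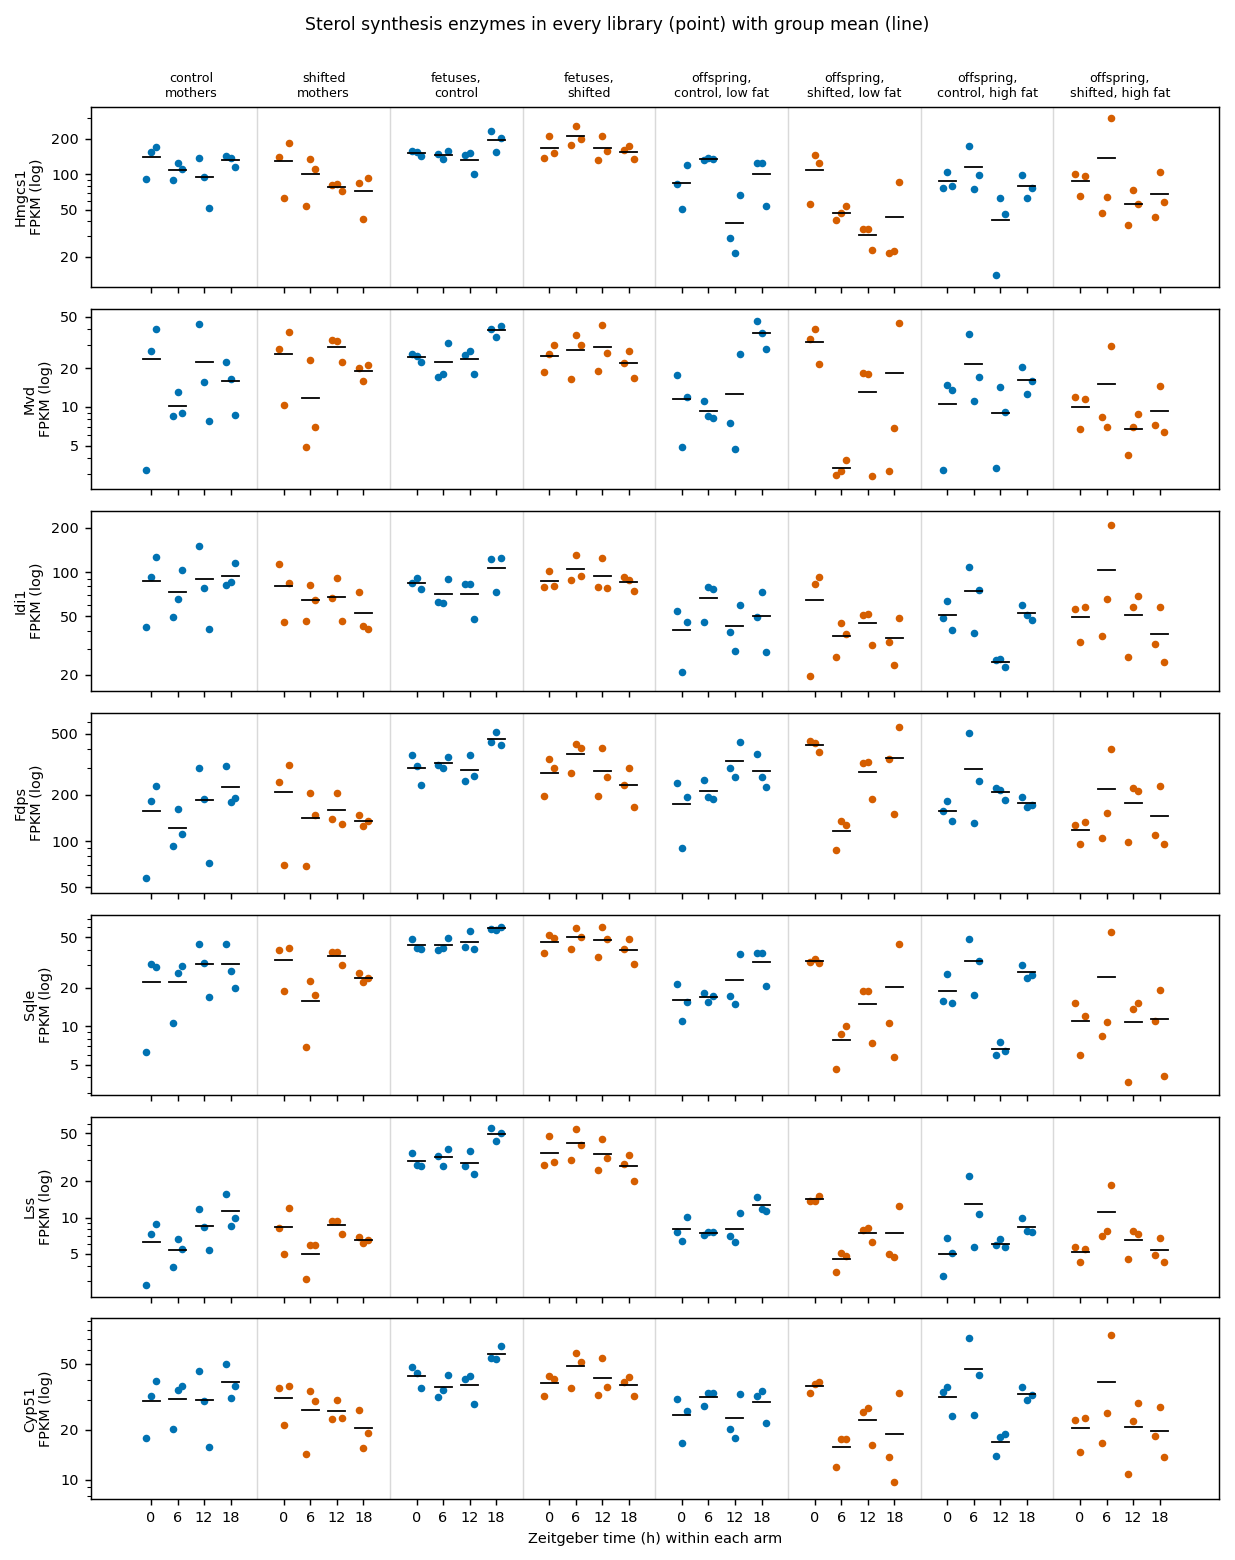
Level of each enzyme (FPKM, log axis) in all 96 libraries, by arm and ZT, with blue for the control and orange for the phase-shifted schedule, and lines at the mean of each group of 3. Replicates of a group spread widely, most of all for Mvd, and Lss sits higher in the 2 fetal arms than in the mothers.

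The first comparison asked whether the phase-shifted schedule changed the mothers' own liver. None of the 7 enzymes was called between phase-shifted and control mothers over the 4 times, where 8.39% of the 10384 genes tested were called, and none reached an unadjusted p under 0.05 in limma. Hmgcs1 ran from 52.2 through a median of 120 to 170 FPKM in control mothers and from 41.7 through 83.3 to 184 in phase-shifted mothers. The ranges overlap almost fully, and the difference was -0.37 (log2, SE 0.20, 95% interval -0.79 to 0.05, adjusted p = 0.231, lower in 8 of 12 libraries). Idi1 differed by -0.34 (SE 0.23, adjusted p = 0.340) and Cyp51 by -0.30 (SE 0.19, adjusted p = 0.308). The other 4 members lay between -0.07 and 0.35, and the median over the 7 was -0.07 against 0.00 over all genes tested. For Mvd, the widest interval ran from -0.38 to 1.09, so the data leave room for a difference of either sign. The 5 endothelial markers each had a lower mean in phase-shifted mothers, with summed levels of 35.1 to 51.5 FPKM in control and 25.8 to 53.0 in phase-shifted mothers. None was at 0 in every library, and their part in these values was not tested.

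At ZT18 the mothers' arms did not overlap for 5 of the members. The other 2 differed most elsewhere, Sqle at ZT0 (0.76, SE 0.52, adjusted p = 0.475) and Mvd at ZT12 (0.68, SE 0.70, adjusted p = 0.953), and at ZT18 they gave -0.26 and 0.34. Cyp51 was 30.9, 36.5 and 49.5 FPKM in control and 15.6, 19.05 and 26.45 in phase-shifted mothers at ZT18. Hmgcs1 was 115, 139 and 144 against 41.7, 84.1 and 92.4. Each phase-shifted library was below each control library for 5 members (Hmgcs1, Idi1, Fdps, Lss and Cyp51), an arrangement that 14.9% of all genes tested showed at that time. The 5 share the same 6 libraries and are not independent. Differences at ZT18 were -0.93 for Hmgcs1 (SE 0.40, adjusted p = 0.197) and -0.91 for Cyp51 (SE 0.37, adjusted p = 0.175), and no member was called at this or any other time (3.29% of genes called at ZT18, 1.4% at ZT0, 0.25% at ZT6 and 0% at ZT12). By unadjusted p under 0.05, 2 members passed at ZT18 and 0 at the other times in limma. The test of whether the difference changed with time called 0 of 7 (adjusted p from 0.721 to 0.980, and 0 at an unadjusted p under 0.05, 1.69% of genes called).

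In the fetuses the enzymes varied less from library to library. Residual SDs were 0.25 to 0.39 (log2) in fetuses, 0.45 to 0.95 in mothers and 0.40 to 0.87 in offspring, against medians over all genes of 0.18, 0.21 and 0.25. Between fetuses of phase-shifted and of control mothers, 0 of 7 members were called over the 4 times (3.66% of 12009 genes called, and 0 members at an unadjusted p under 0.05 in limma). Fdps ran from 232 through a median of 335 to 517 FPKM in control fetuses and from 167 through 288 to 432 in phase-shifted fetuses, a difference of -0.26 (SE 0.14, 95% interval -0.54 to 0.03, adjusted p = 0.273). Idi1 differed by 0.17 (SE 0.12, adjusted p = 0.407) and Hmgcs1 by 0.16 (SE 0.10, adjusted p = 0.365). The other 4 lay between -0.07 and -0.03, and the outermost bounds of the 7 intervals were -0.54 and 0.43.

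Control fetuses had their highest mean log2 level at ZT18 for all 7 members, and fetuses of phase-shifted mothers at ZT6 for 6 and at ZT12 for Mvd. With each library left out in turn, the first count stayed at 7 and the second ran from 4 (without ZT6 replicate 2) to 7. At ZT18 Fdps was 424, 441 and 517 FPKM in control fetuses and 167, 231 and 298 in phase-shifted fetuses, a difference of -1.02 (SE 0.27, adjusted p = 0.112). Lss was 43.2, 49.8 and 54.9 against 20.3, 27.7 and 33.0 FPKM at that time, a difference of -0.87 (SE 0.25, adjusted p = 0.115). Groups did not overlap at ZT18 for 5 members (Sqle, Fdps, Lss, Cyp51 and Mvd, all lower), as for 20.5% of all genes, and at ZT6 Hmgcs1 alone was higher without overlap, as for 7.2%. None of the 7 was called at ZT18 (0.05% of genes called), although 5 had an unadjusted p under 0.05 in limma. At ZT0, ZT6 and ZT12 none was called either (0.05%, 0.0167% and 0% of genes called), with 0, 2 and 0 members at an unadjusted p under 0.05. Neither the test of time of day in control fetuses nor that of the difference between arms over time called a member (all 7 at adjusted p = 0.741 and 0.911, with 5 and 3 at an unadjusted p under 0.05 in limma), and 0% of genes were called by either.

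**Figure D2:**
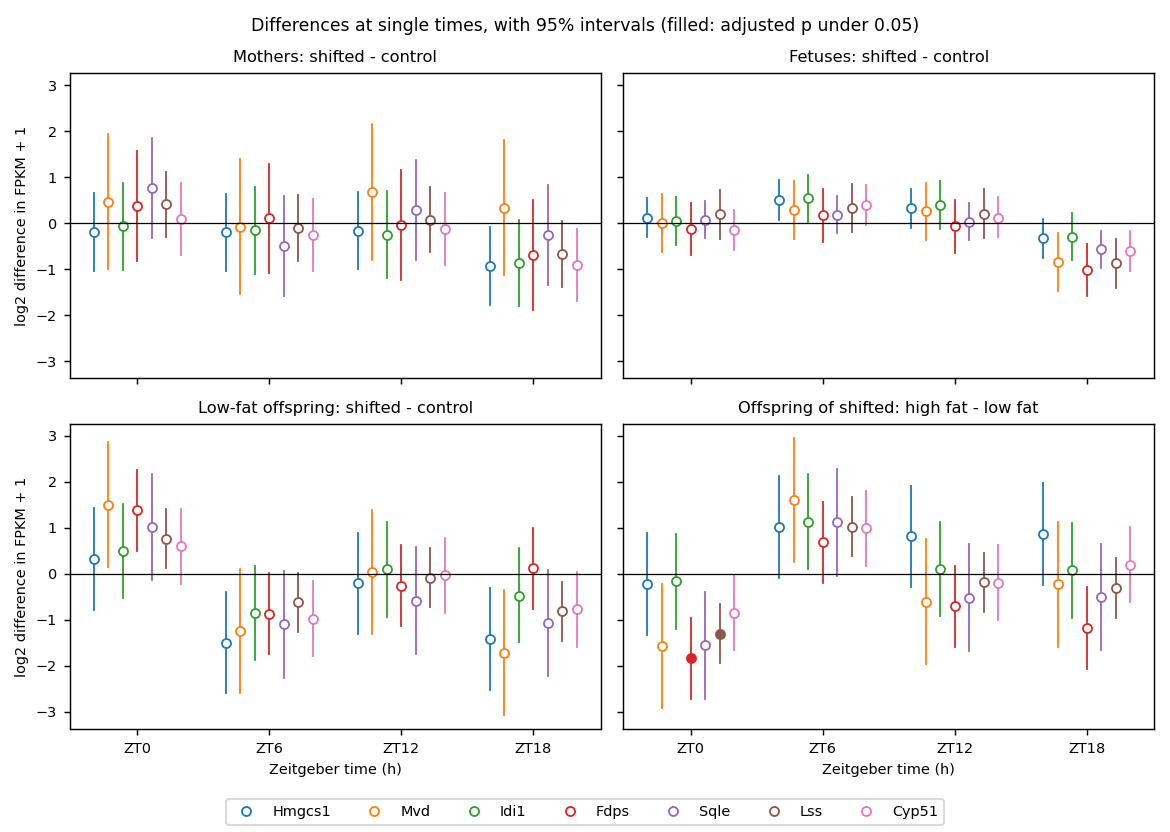
Differences of log2(FPKM + 1) at each ZT for the 7 enzymes in 4 comparisons, with 95% intervals and filled points where limma's adjusted p was under 0.05. The 2 filled points are Fdps and Lss at ZT0 between the diets in offspring of phase-shifted mothers, and in low-fat offspring the points lie above 0 at ZT0 and below 0 at ZT6.

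Fetal and maternal liver differed in the balance of the 7 enzymes, and Lss carried the largest difference. On a scale shared by mothers and fetuses, Lss ran from 3.39 through a median of 9.53 to 19.1 FPKM in control mothers and from 18.5 through 27.0 to 44.5 in control fetuses. In the phase-shifted arms it ran from 3.79 through 8.21 to 14.5 in mothers and from 17 through 25 to 44.6 in fetuses. The phase-shifted arms did not overlap, and the control arms overlapped only between 18.5 and 19.1 FPKM. Lss was higher in fetuses by 1.53 (SE 0.16, adjusted p = 3.07e-11) under the control and by 1.58 (SE 0.16, adjusted p = 1.16e-11) under the phase-shifted schedule. The 2 comparisons share no library, but they come from the same fit, with library factors and the variance estimate in common. Pairs of mother and fetus were not modelled. The Lss call held without each library in turn (1.42 to 1.6 and 1.51 to 1.65) and under each of the 6 alternatives (1.38 to 2.01 and 1.38 to 2.17).

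The other members moved less, and their calls depended on the scale. Control fetuses against control mothers called 3 of 7 members where 85.2% of 12389 genes were called: Lss, Fdps (0.54, SE 0.23, adjusted p = 0.0298, higher) and Idi1 (-0.56, SE 0.19, adjusted p = 0.00691, lower). Under the phase-shifted schedule 2 of 7 were called where 85.8% of genes were: Lss and Hmgcs1 (0.40, SE 0.16, adjusted p = 0.0234, higher). The median of all genes was itself 0.16 and 0.17 higher in fetuses on this scale, and 0.55 and 0.64 higher in the values as deposited. Relative to that median, Lss was 1.35 to 1.46 higher under the control and 1.36 to 1.53 higher under the phase-shifted schedule over 4 scalings. Idi1 was -0.74 to -0.60 relative to the median, but as deposited and uncorrected it was -0.05 (adjusted p = 0.829) and lost its call. Fdps lost its call with upper quartile factors (0.38, adjusted p = 0.129), with GC and length trends removed (0.40, adjusted p = 0.0985) and without any of 5 single libraries: control mothers ZT0 replicate 1 (0.39), ZT6 replicate 1 (0.49), ZT12 replicate 3 (0.39) and ZT18 replicate 2 (0.50), and control fetuses ZT12 replicate 2 (0.50). Hmgcs1 under the phase-shifted schedule lost its call with upper quartile factors (0.21, adjusted p = 0.246), with GC and length trends removed (0.26, adjusted p = 0.160) and without any of 4 single libraries: phase-shifted mothers ZT0 replicate 2 (0.29), ZT6 replicate 1 (0.30) and ZT18 replicate 2 (0.31), and phase-shifted fetuses ZT0 replicate 2 (0.35). Sqle, not called under the control schedule (0.41, SE 0.20, adjusted p = 0.0622), is called as deposited (0.91) and without any of 6 libraries of control mothers: ZT0 replicate 2 or 3, ZT6 replicate 2 or 3, ZT12 replicate 1 or ZT18 replicate 1 (0.45 to 0.5). On the scale shared by mothers and fetuses, hepatocyte markers were lower in fetuses for 6 of 6 genes (control) and 5 of 6 (phase-shifted). Scaled separately, they summed to 108000 to 150000 FPKM in control mothers and 24600 to 79300 in control fetuses, mostly Alb (means of 109000 and 38700). With that separate scaling Apoa1 had a mean of 10400 FPKM in both arms. Ttr had 2930 in mothers and 3280 in fetuses, and the other markers had lower means in fetuses. Erythroid markers summed to 5.61 to 15.4 FPKM in control mothers and 1070 to 2040 in control fetuses. Hepatoblast markers summed to 0.325 to 5.46 and 15100 to 23400 FPKM in the same arms. Macrophage markers gave 4 higher and 2 lower of 6, stellate markers 3 higher and 2 lower of 5, and all 3 lymphocyte markers tested were higher, in both comparisons. The part of cell types in the enzyme values was not tested.

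**Figure D3:**
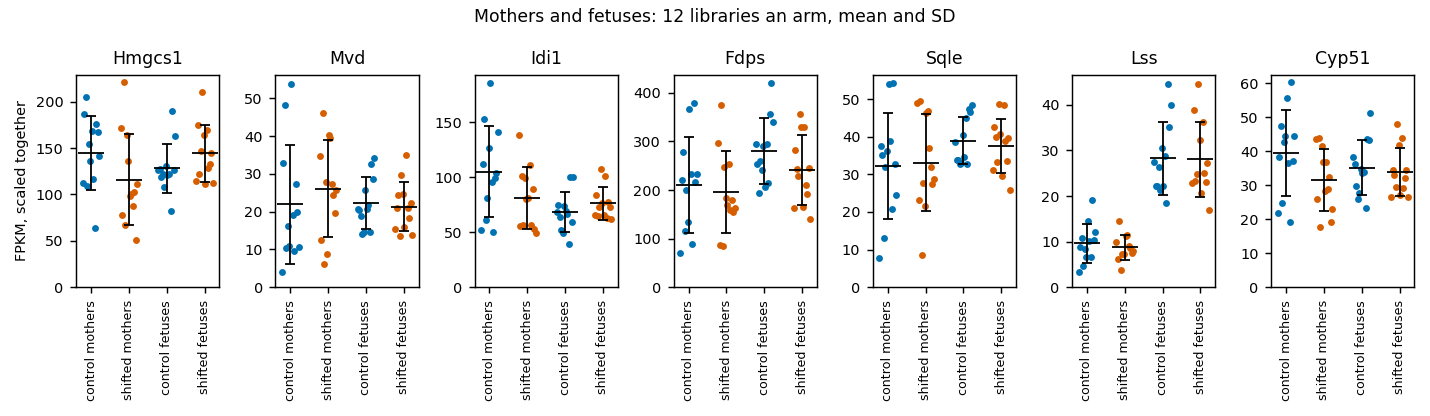
Levels (FPKM, linear axis from 0, mothers and fetuses scaled together) of the 7 enzymes in 12 libraries an arm, with mean and SD. Lss has means of 9.62 and 8.72 in mothers and 28.3 and 28.0 in fetuses, while the other 6 overlap broadly between stages.

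The offspring show how these genes stood at the end of the diet, after the mothers' schedule had ended. On the low-fat diet, 0 of 7 members were called between offspring of phase-shifted and of control mothers over the 4 times (0.00919% of 10883 genes called). Hmgcs1 ran from 21.6 through a median of 101 to 137 FPKM in control and from 21.4 through 44.1 to 146 in phase-shifted offspring. Its difference of -0.70 (SE 0.27, 95% interval -1.25 to -0.14, lower in 10 of 12 libraries) was the 1 member with an unadjusted p under 0.05 in limma, and its adjusted p was 0.534. Sqle differed by -0.43 (SE 0.29, adjusted p = 0.779) and Cyp51 by -0.29 (SE 0.20, adjusted p = 0.797). The remaining 4 lay between -0.35 and 0.09.

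By time, the low-fat arms were ordered one way at ZT0 and the other way at ZT6. Fdps at ZT0 was 90.6, 194 and 241 FPKM in control and 384, 433 and 452 in phase-shifted offspring. At ZT6 it was 189, 195 and 250 in control and 88.0, 127 and 134 in phase-shifted offspring. So the phase-shifted libraries were all above the control libraries at ZT0 and all below them at ZT6.

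Sqle was 10.9, 15.6 and 21.6 FPKM in control against 31.5, 31.9 and 33.5 in phase-shifted offspring at ZT0. At ZT6 it was 15.6, 17.4 and 18.2 against 4.6, 8.64 and 10.03. Mvd was 4.87, 12.0 and 17.7 against 21.55, 33.4 and 40.4 at ZT0, and 8.24, 8.55 and 11.1 against 2.95, 3.19 and 3.87 at ZT6. These 2 enzymes thus showed the same arrangement as Fdps. Hmgcs1, the first of the 7 in the pathway, was 132, 135 and 137 FPKM in control and 40.9, 47.4 and 53.7 in phase-shifted offspring at ZT6, while at ZT0 its groups overlapped.

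In number, 5 members (Sqle, Fdps, Lss, Cyp51 and Mvd) were higher without overlap at ZT0, against 4.13% of all genes, and 7 of 7 were lower without overlap at ZT6, against 14.4%. Both held for the same 5 members and for 35 of the 10883 genes tested (0.322%), a pair of times picked after seeing the data. The 7 share the same 12 libraries, so these counts are not 7 separate observations. No member was called at ZT0 (0% of genes called, 3 members at an unadjusted p under 0.05 in limma) or ZT6 (2.91% of genes called, 2 members at an unadjusted p under 0.05), nor at ZT12 (0% of genes called, 0 members) or ZT18 (0.0827% of genes called, 3 members). The largest differences at ZT0 and ZT6 were 1.5 for Mvd (SE 0.67, adjusted p = 0.267) and -1.5 for Hmgcs1 (SE 0.55, adjusted p = 0.122). At ZT18, 6 of 7 differences were negative, among them -1.71 for Mvd (SE 0.67, adjusted p = 0.424) and -1.42 for Hmgcs1 (SE 0.55, adjusted p = 0.419), though no member was without overlap there. Nor did the test of the arms' difference over all 4 times call any (adjusted p from 0.152 to 0.557, 0.11% of genes called), with 5 at an unadjusted p under 0.05 in limma. Without low-fat offspring of phase-shifted mothers ZT18 replicate 3, Mvd passed that test (adjusted p = 0.0475). Libraries of low correlation bear on both times. Without them the differences for the 5 members at ZT0 were 0.42 to 0.97, and those of the 7 at ZT6 were -1.41 to -0.50. No member was called at either time without these libraries (adjusted p from 0.127 to 0.457 at ZT6 in limma).

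On the high-fat diet, 0 of 7 members were called between offspring of phase-shifted and of control mothers (1 at an unadjusted p under 0.05 in limma), although 48.1% of the 10883 genes were. Sqle came nearest: it ran from 5.95 through a median of 20.8 to 48.3 FPKM in control and from 3.63 through 11.6 to 54.5 in phase-shifted offspring, a difference of -0.61 (SE 0.29, 95% interval -1.19 to -0.03, adjusted p = 0.0755, lower in 9 of 12 libraries). Cyp51 and Fdps each differed by -0.39 (SE 0.20 and 0.22, adjusted p = 0.102 and 0.134). Sqle is called without high-fat control ZT6 replicate 2 (-0.70, adjusted p = 0.0469), high-fat phase-shifted ZT6 replicate 3 (-0.81, adjusted p = 0.0122) or high-fat phase-shifted ZT18 replicate 2 (-0.72, adjusted p = 0.0374). Leaving out the first or second of these also calls Fdps (-0.51 and -0.53) and Cyp51 (-0.49 and -0.55), and with GC and length trends removed Sqle (-0.80, adjusted p = 0.0292) and Cyp51 (-0.59, adjusted p = 0.0222) are called. High-fat phase-shifted ZT6 replicate 3 held the highest level of its arm for all 7 members, for example 299.5 FPKM of Hmgcs1 beside 47.0 and 63.7 in the other 2 libraries of its group. Hepatocyte markers summed to 46600 to 68800 FPKM in control and 35000 to 54600 in phase-shifted high-fat offspring, with 3 of 6 called (1 higher, 2 lower). Of 5 endothelial markers, Clec4g, Stab2, Oit3 and Pecam1 had lower means in phase-shifted offspring. Kdr had a higher mean (2.39 FPKM in control and 2.94 in phase-shifted). The part of these markers was not tested. No member was called by the test of the arms' difference over time (adjusted p from 0.541 to 0.999, 0 at an unadjusted p under 0.05 in limma, 0% of genes called).

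At single times the high-fat arms gave no called member at ZT0, ZT6, ZT12 or ZT18, where 31.3%, 0.184%, 31.4% and 0.0827% of genes were called, with 0, 0, 0 and 1 members at an unadjusted p under 0.05 in limma. Sqle at ZT18 was 23.8, 25.1 and 30.5 FPKM in control and 4.11, 11.1 and 19.1 in phase-shifted high-fat offspring, a difference of -1.35 (SE 0.57, adjusted p = 0.320). Groups did not overlap for Sqle, Lss and Cyp51 at ZT18 (lower, as for 16.6% of genes), for Fdps and Cyp51 at ZT0 (lower, 16.8%) and for Idi1 at ZT12 (higher, 25.8%). The members share these libraries and are not independent.

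Diet was compared within each maternal schedule. In offspring of control mothers, 0 of 7 members were called between high-fat and low-fat diets (14.6% of genes called, 0 members at an unadjusted p under 0.05 in limma), and differences lay between -0.27 (Fdps, SE 0.22, adjusted p = 0.405) and 0.14 (Cyp51, SE 0.20, adjusted p = 0.658). None was called at ZT0, ZT6, ZT12 or ZT18 (10.2%, 0.257%, 9.74% and 0.349% of genes called, with 0, 0, 1 and 0 members at an unadjusted p under 0.05) or by the test over time (0.0276% of genes called, 1 member). Sqle at ZT12, the squalene step, was 14.8, 17.2 and 36.6 FPKM on the low-fat and 5.95, 6.35 and 7.56 on the high-fat diet (-1.54, SE 0.57, adjusted p = 0.0732). Sqle, Idi1 and Fdps were lower without overlap at ZT12 (13.7% of genes), Fdps, Lss and Mvd at ZT18 (9.92%), and Mvd was higher at ZT6 (11%).

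In offspring of phase-shifted mothers, Fdps was lower on the high-fat diet. It ran from 88.0 through a median of 327 to 550 FPKM on the low-fat diet and from 95.9 through 131 to 398 on the high-fat diet, with means of 292 ± 151 and 165 ± 89.0 (SD, n = 12). The ranges overlap, and 10 of 12 high-fat libraries were below the low-fat mean of their time. The difference was -0.76 (SE 0.22, 95% interval -1.20 to -0.31, adjusted p = 0.0112), and 1 of 7 members was thus called where 23.8% of genes were. Fdps was called without each library in turn (-0.89 to -0.65) and under all 8 alternatives (-0.83 to -0.71). Hmgcs1 differed the other way, by 0.62 (SE 0.27, adjusted p = 0.0954). It is called without low-fat phase-shifted ZT18 replicate 3 (0.78, adjusted p = 0.0326) or high-fat phase-shifted ZT6 replicate 1 (0.75, adjusted p = 0.0441). Hepatocyte markers summed to 43500 to 80500 FPKM on the low-fat and 35000 to 54600 on the high-fat diet in these arms. Means were lower on the high-fat diet for Alb, Apoa1, Ttr, Serpina1a and, slightly, Cps1 (547 and 540 FPKM). Cyp2e1 had a higher mean (2720 on the low-fat and 3290 on the high-fat diet). The part of these markers was not tested. The test of whether the effect of the maternal schedule differed between diets called 0 of 7 (24.5% of genes called, 0 members at an unadjusted p under 0.05 in limma). Its estimates were 0.74 for Hmgcs1 (SE 0.39, adjusted p = 0.161) and -0.49 for Fdps (SE 0.31, adjusted p = 0.256).

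At single times the difference between diets in these offspring was called at ZT0 only, for Fdps and Lss, where 8.06% of genes were called (0.0459%, 6.29% and 8.06% at ZT6, ZT12 and ZT18, with 4, 0 and 1 members at an unadjusted p under 0.05 in limma). Fdps at ZT0 was 384, 433 and 452 FPKM on the low-fat and 95.9, 127 and 134 on the high-fat diet (-1.83, SE 0.44, adjusted p = 0.0131). Lss at ZT0 was 13.7, 13.7 and 15.0 FPKM against 4.32, 5.47 and 5.76 (-1.30, SE 0.32, adjusted p = 0.0152). Neither gene's groups overlapped, and both calls end without low-fat phase-shifted ZT0 replicate 1 (adjusted p = 0.0823 and 0.0768) or high-fat phase-shifted ZT0 replicate 2 (adjusted p = 0.0801 and 0.0806). With all 5 libraries of low correlation left out together, both were called (-1.79 and -1.32, adjusted p = 0.0472 and 0.0443). The low-fat ZT0 libraries here are the same that stood above the control libraries at ZT0, so the 2 comparisons share them. In number, 5 members were lower without overlap at ZT0, against 14.5% of genes, and Lss and Mvd were higher without overlap at ZT6, against 10.4% (both patterns in 1.78% of genes). Hmgcs1 was higher without overlap at ZT12, against 30.3%. In the test of the diets' difference over time the lowest adjusted p was 0.0588, for Lss, and 0 of 7 members were called (0.119% of genes called, 5 members at an unadjusted p under 0.05 in limma). Lss passed it without low-fat phase-shifted ZT0 replicate 2 (0.0408) or 3 (0.0183), ZT18 replicate 2 (0.0311) or 3 (0.0350), or high-fat phase-shifted ZT18 replicate 2 (0.0396), and Fdps without low-fat phase-shifted ZT0 replicate 3 (0.0449) or ZT18 replicate 2 (0.0422).

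**Figure D4:**
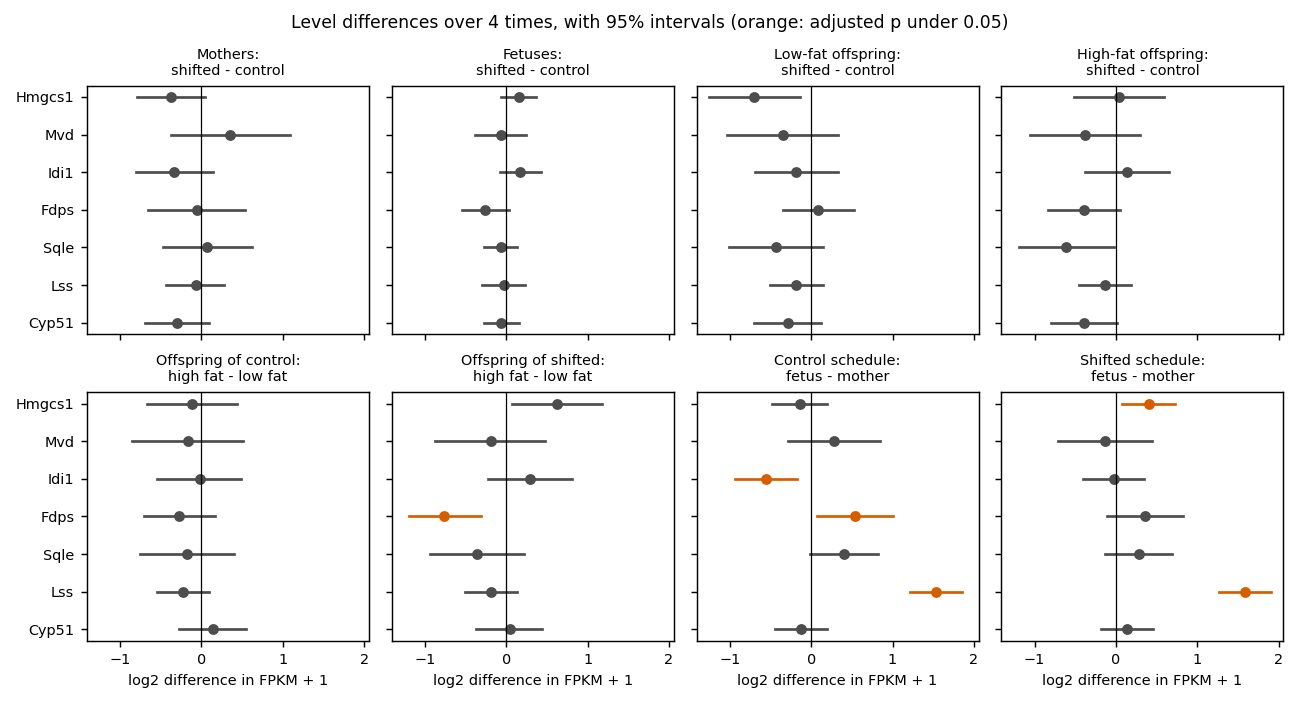
Difference of mean log2(FPKM + 1) over 4 times for each enzyme in 8 comparisons, with 95% intervals, orange where limma's adjusted p was under 0.05. Within a stage the 1 called difference is Fdps between the diets in offspring of phase-shifted mothers (-0.76), and between stages Lss is the farthest from 0 (1.53 and 1.58).

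Time of day within an arm was called for few members, and no member was called in more than 1 arm. Low-fat offspring of control mothers had Hmgcs1 called (adjusted p = 0.0473, 15.5% of 10124 genes called), with 83.4, 50.45 and 119 FPKM at ZT0, 132, 137 and 135 at ZT6, 28.8, 21.6 and 66.4 at ZT12, and 125, 124 and 54.3 at ZT18. ZT6 was high and narrow, and ZT12 was low. The call ended under 6 alternatives (adjusted p = 0.0571 to 0.266) and without 8 of the 12 single libraries (adjusted p up to 0.152): ZT0 replicate 1, ZT6 replicates 1, 2 and 3, ZT12 replicates 1 and 2, and ZT18 replicates 1 and 2. Lss and Mvd, not called in that arm, were called without 2 and 3 single libraries, among them ZT12 replicate 3 (adjusted p = 0.0371 and 0.0228).

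Low-fat offspring of phase-shifted mothers had Fdps (adjusted p = 0.0209) and Lss (adjusted p = 0.0164) called, where 24.7% of genes were. All 7 members had their highest mean log2 level at ZT0 in this arm, and that mean exceeded the lowest time by 1.56-fold for Idi1 to 7.36-fold for Mvd (folds of FPKM + 1). Fdps lost its call without a filter on low values (adjusted p = 0.0541) and without ZT6 replicate 1, 2 or 3 (adjusted p = 0.0785, 0.0515 and 0.0602), and both were lost without the libraries of low correlation (0.106 and 0.0670) or with cosine and sine terms for time (0.0847 and 0.186). Leaving out those libraries called Hmgcs1 (0.045) and Idi1 (0.0467) in place of Fdps and Lss. Without ZT18 replicate 3, Hmgcs1, Sqle, Cyp51 and Mvd were also called. The share of all genes called in that refit is not given here. Hmgcs1 and Idi1 are also called without ZT0 replicate 1 (adjusted p = 0.0256 and 0.03), Sqle without ZT18 replicate 2 (0.0422) and Mvd without ZT12 replicate 3 (0.0438).

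High-fat offspring of control mothers had Sqle called (adjusted p = 0.0296, 0.725% of genes called), with 5.95, 6.35 and 7.56 FPKM at ZT12 against 17.7, 32.3 and 48.3 at ZT6. Sqle at ZT12 thus lay below every library of the other times in that arm. The call ended without a filter on low values (adjusted p = 0.0712), with cosine and sine terms (0.464) and with a term for replicate number (0.0907). It also ended without 7 of 12 single libraries (adjusted p up to 0.122): ZT6 replicate 3, and any of ZT12 or ZT18. Idi1 is called there without ZT6 replicate 2 (adjusted p = 0.0181). In high-fat offspring of phase-shifted mothers no member was called, though 30.1% of genes were (0 members at an unadjusted p under 0.05 in limma). Both high-fat arms had their highest mean log2 level at ZT6 for all 7 members, but this rests on 1 library in each. ZT6 stayed highest for 1 member without ZT6 replicate 1 of the control arm and for 3 without ZT6 replicate 3 of the phase-shifted arm. No member was called in control mothers (4.34% of genes called), phase-shifted mothers (0.645%) or phase-shifted fetuses (0%), with 0, 1 and 0 members at an unadjusted p under 0.05 in limma.

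The 7 enzymes rose and fell together between libraries of the same group. In 62 of the 96 libraries (64.6%), all 7 members lay on the same side of their group means. This counted 15 of 24 libraries of mothers, 15 of 24 of fetuses, 32 of 48 of offspring, and 11 of 12 of the high-fat offspring of phase-shifted mothers. With groups of 3, deviations within a group sum to 0, so the libraries are not independent in this count. Within groups, the median correlation over the 21 pairs of members was 0.872 in mothers (24 libraries), 0.796 in fetuses (24) and 0.792 in offspring (48), a description over points that share library and scale.

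Single libraries show the size of this shared movement. The mean deviation of the 7 members was -1.07 (log2) in control mothers ZT0 replicate 1, where Mvd was 3.24 FPKM beside 27.2 and 40.1, and Sqle 6.33 beside 29.2 and 31.0. It was 1.28 in high-fat phase-shifted offspring ZT6 replicate 3 and 1.14 in low-fat phase-shifted offspring ZT18 replicate 3. Other enzymes of cholesterol synthesis deviated in the same direction in these 3 libraries (means of -0.53, 0.70 and 0.67), hepatocyte markers by 0.21, 0.01 and 0.35, and the median of all genes by 0.01, 0.00 and -0.07. The 3 libraries were chosen for their member deviations, and scaling holds the median of all genes near 0, so these values are a description. At least 86.3% of the genes tested had a smaller residual SD than any member in mothers and offspring, and at least 71.6% in fetuses.

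**Figure D5:**
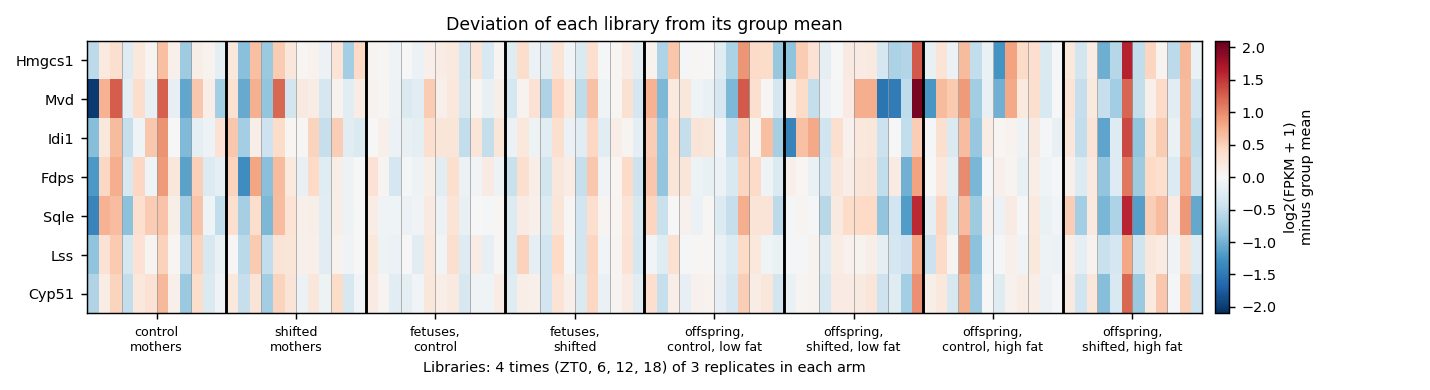
Deviation of log2(FPKM + 1) from the mean of its group of 3 for the 7 enzymes (vertical) in 96 libraries (horizontal, ordered by arm, ZT and replicate), blue below and red above the mean. Columns are mostly of 1 colour, as in the 62 libraries with all 7 members on one side, and the fetal columns are palest.

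Genes were also ranked by how closely their levels followed the mean of the 7 over all libraries of a stage. Group means were not removed here, so these correlations include differences between arms and times. The nearest genes were often further steps of the same pathway. Of the 8 nearest genes in each stage, 5 in mothers, 4 in fetuses and 5 in offspring belonged to the list of 12 other synthesis enzymes described next. Dhcr7 and Msmo1, which act late in cholesterol synthesis, were among the 8 in all 3 stages. Fdft1, squalene synthase, came first in mothers (r = 0.93 over 24 libraries) and in offspring (r = 0.91 over 48), and Acat2, which condenses acetyl-CoA, came first in fetuses (r = 0.92 over 24).

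Related genes were counted by lists. Of 12 other synthesis enzymes, 0 were called over the 4 times between schedules in mothers, fetuses and low-fat offspring, with 3, 1 and 1 at an unadjusted p under 0.05 in limma. In high-fat offspring 5 of the 12 were called between schedules, near the 48.1% of all genes, 2 higher and 3 lower (in the values as deposited 4 higher and 1 lower), and the median of the 12 was -0.17, beside -0.38 for the members and 0.03 for all genes (0.21 as deposited). Of 7 sterol sensing genes 5 rose in that comparison and none fell (4 to 6 over the scalings), where 48.1% of all genes were called in either direction, with Stard4, a sterol carrier, 1.5 higher (SE 0.21, adjusted p = 4.77e-07) and Insig2, which retains the sterol sensor in the endoplasmic reticulum, 1.10 higher (SE 0.16, adjusted p = 1.74e-06). On the non-sterol branch 1 of 6 rose (3 as deposited, and 2 higher and 1 lower with GC and length trends removed), Pdss2 of ubiquinone synthesis (0.89, SE 0.13, adjusted p = 1.26e-06). Single-time calls of these lists between high-fat arms were only at ZT0 and ZT12, where 31.3% and 31.4% of all genes were called. At ZT6 and ZT18, 0.184% and 0.0827% were. Each of ZT0 and ZT12 holds a high-fat control library of low correlation, and Pdss2 reached 0 FPKM in that arm (median 1.92). The part of those libraries was not tested. In mothers, where 8.39% of all genes were called, 2 of the 7 sensing genes were lower on the phase-shifted schedule: Scap, the escort of SREBP, by a log2 difference of -0.43 (SE 0.09, adjusted p = 0.00621) and Srebf2, which encodes SREBP2, of -0.42 (SE 0.10, adjusted p = 0.0150). Srebf2 was 5.27 to 10.3 FPKM in control and 3.42 to 7.17 in phase-shifted mothers.

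Between control fetuses and control mothers, 9 of the 12 other synthesis enzymes were called where 85.2% of all genes were, 2 higher and 7 lower. In the values as deposited 4 of the 12 were higher and 5 lower (of the 7 members 6 were called, all higher), and with upper quartile factors 0 and 8. As deposited, 10997 of 12501 genes were called, 8372 of them higher. Sterol export and esterification genes gave 1 higher and 4 lower of 7 (3 higher and 4 lower as deposited, 1 and 6 with upper quartile factors), led by Abcg8 (-3.55, SE 0.14, adjusted p = 8.39e-23) and Abcg5 (-4.02, SE 0.19, adjusted p = 8.14e-21), the pair that exports sterols into bile. Abcg5 was 9.15 to 41.0 FPKM in control mothers and 0.306 to 2.31 in control fetuses. Of 6 genes on the non-sterol branch 5 were higher and 1 lower (5 and 0 as deposited), with Fntb, a farnesyltransferase subunit, 1.61 higher (SE 0.07, adjusted p = 1.46e-22).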

How the data were processed

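The authors aligned reads with TopHat2 2.1.1 and summarised them with Cufflinks 2.2.1 on mm10, per the submitters' processing notes. Libraries were TruSeq stranded mRNA from TRIzol-extracted liver RNA, per the labels' protocols. Which annotation was used, and whether genes were filtered, is not given in the sources used here. The deposited values are FPKM, as the tool and the values show, with no counts. From the 24883 table entries, 817 entries of 280 repeated symbols were left out.

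FPKM were divided by median-of-ratios library factors (0.706 to 1.30 within mothers, fetuses or offspring), 1 was added and log2 taken. Genes reaching 1 FPKM in 3 or more libraries of a fit were tested with limma 3.58.1 in R 4.3.3 (trended variance), 1 mean per arm and time, Benjamini-Hochberg adjusted over all genes tested. All 7 members passed that filter in every fit. Levels compare means over 4 times, time of day is an F test (3 df) in the 12 libraries of an arm. Mothers and fetuses were also scaled and fitted together. On simulated data the level test in mothers recovered 77% of 1.5-fold and 100% of 2-fold changes over 10384 genes, and the time test in low-fat offspring of control mothers 5% and 47% over 10883 genes. The changed genes were drawn from all genes tested. Members varied more, with residual SDs of 0.45 to 0.95 in mothers against a median of 0.21. These shares are therefore not rates for the members.

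The members, lists and tests were chosen with earlier results of these data known. Members are always reported, other genes of a list only by count, with values for up to 4 of smallest p in a comparison. Marker lists were hepatocyte, hepatoblast, erythroid (5 of 7 genes usable), macrophage, endothelial, stellate and lymphocyte. Alternatives were another pseudocount (0.1), no filter, values as deposited, upper quartile factors, a replicate block, other fits, leaving out single libraries or those of low correlation and, added after seeing the data, removing trends with GC and transcript length, and counting the highest times again without each library. Other genes of sterol metabolism were not analysed here. Promoters are RefSeq sequences (GRCm38.p6), and coordinates are of that build.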

Additional observations from a re-analysis of the deposited data

Results flagged for a closer look

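In low-fat offspring, 5 members stood above without overlap at ZT0 and below without overlap at ZT6 in the phase-shifted arm, as did 0.322% of all genes tested. At ZT0 the log2 differences were 1.02 for Sqle, 1.38 for Fdps, 0.77 for Lss, 0.6 for Cyp51 and 1.5 for Mvd, and at ZT6 they were -1.10, -0.87, -0.62, -0.97 and -1.24. Between diets in offspring of phase-shifted mothers, Lss was 1.03 and Mvd 1.61 higher on the high-fat diet at ZT6, and both were lower at ZT0 (-1.30 and -1.56). Of all genes, 1.78% showed that pattern without overlap. Between diets in offspring of control mothers, Mvd was 0.98 higher on the high-fat diet at ZT6 and lower at ZT18 (-1.15), without overlap as for 11% and 9.92% of genes. The difference between the 2 times was not tested on its own in any of these. The pairs of times were picked after seeing the data, so the shares are for patterns not fixed beforehand. The test over all 4 times gave adjusted p from 0.152 to 0.288 for the low-fat offspring, 0.0588 and 0.208 for Lss and Mvd between diets under the phase-shifted schedule, and 0.406 for Mvd under the control schedule (limma). The genes share libraries, and the low-fat phase-shifted libraries enter the first and second of these comparisons.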

How the results depend on the processing

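All 7 members are given here, called or not. Counts of members called that changed were, as deposited, 6 in both fetus and mother comparisons, 6 for time of day in low-fat phase-shifted offspring, and at single times 1 between high-fat arms and 2 between diets under the control schedule (1 in a fit of those 2 arms). As deposited, 10997 (control) and 11175 (phase-shifted) of 12501 genes were called between fetuses and mothers. Under the phase-shifted schedule, fetuses against mothers gave 1 with upper quartile factors and 1 with GC and length trends removed, which gave 2 between high-fat arms. Over all genes these called 10554 of 12346, 10323 of 11938 and 4530 of 10486. For the other counts of members in this section the share of all genes is not given, so they are not results about the members. Time of day in low-fat control offspring gave 0 without a filter, with upper quartile factors, with the GC and length trends removed, with cosine terms, in the fit of all offspring and with the replicate block, and 2 without the libraries of low correlation. In low-fat phase-shifted offspring it gave 1 without a filter, 1 with cosine terms and 5 in the fit of all offspring, and in high-fat control offspring 0 without a filter, with cosine terms and with the replicate block.

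Members that changed sign as deposited were Sqle in mothers (-0.01), Lss in fetuses (0.01) and between high-fat arms (0.06), Cyp51 (0.07) and Mvd (0.13) for schedule by diet, Hmgcs1 (0.37) and Cyp51 (0.38) in control fetuses against mothers, and Idi1 (0.59) and Mvd (0.46) under the phase-shifted schedule. With GC and length trends removed they were Mvd in fetuses (0.05), Hmgcs1 (-0.15) and Idi1 (-0.01) between high-fat arms, Hmgcs1 (0.01) and Idi1 (0.11) between diets under the control schedule, Cyp51 (-0.07) between diets under the phase-shifted schedule, Lss (-0.15) and Mvd (0.18) for schedule by diet, and Cyp51 (-0.05) in phase-shifted fetuses against mothers. With upper quartile factors they were Hmgcs1 between high-fat arms (-0.05), Cyp51 between diets (-0.03), Lss for schedule by diet (-0.03) and Cyp51 in phase-shifted fetuses against mothers (-0.06). Without the libraries of low correlation they were Cyp51 between diets (-0.03) and, for schedule by diet, Lss (-0.01) and Mvd (0.03), which was 0.02 with a pseudocount of 0.1.

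Leaving out 1 library at a time gave counts of 0 to 3 between high-fat arms, 1 to 2 between diets under the phase-shifted schedule, 1 to 2 in phase-shifted fetuses against mothers, 0 to 3, 1 to 6 and 0 to 2 for time of day in low-fat control, low-fat phase-shifted and high-fat control offspring, 0 to 1 for the low-fat arms over time and at single times, and 0 to 2 and 0 to 3 for the diets under the phase-shifted schedule over time and at single times. Signs changed for Sqle (-0.10 to 0.19) and Fdps (-0.21 to 0.10) in mothers, at ZT18 for Sqle (-0.52 to 0.04) and Mvd (-0.02 to 0.63), for Lss (-0.09 to 0.02) and Mvd (-0.15 to 0.01) in fetuses, Fdps between low-fat arms (-0.02 to 0.22), Hmgcs1 (-0.16 to 0.17) and Idi1 (-0.04 to 0.27) between high-fat arms, Hmgcs1 (-0.22 to 0.04) and Idi1 (-0.13 to 0.08) between diets under the control schedule, and Cyp51 (-0.12 to 0.16), Mvd (-0.39 to 0.05) and at ZT0 Hmgcs1 (-0.64 to 0.05) and Idi1 (-0.87 to 0.24) under the phase-shifted one. They also changed for Sqle (-0.38 to 0.02), Lss (-0.06 to 0.16), Cyp51 (-0.26 to 0.02) and Mvd (-0.22 to 0.22) for schedule by diet, and Idi1 (-0.12 to 0.04) and Mvd (-0.27 to 0.01) in phase-shifted fetuses against mothers. The cause was not tested.

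Over all genes, 440 were called between the fetal arms, 190 as deposited and 178 with GC and length trends removed. Between arms, most libraries of the same replicate number did not deviate together over all genes (correlation over 0.1 in 0 to 3 of 12 pairs in 6 comparisons). Between the fetal arms the 12 correlations ran from -0.67 to 0.79 (median -0.076), and in the other comparisons from -0.3 to 0.23. Fetuses against mothers were not checked. Within an arm such shared deviation was not tested over all genes. In phase-shifted fetuses replicate 2 lay above its group mean for all 7 members at all 4 times (0.26, 0.33, 0.46 and 0.24). The replicate block moved 2 of 29 counts of members, those for time of day given above (adjusted p = 0.0662 for Hmgcs1 in low-fat and 0.0907 for Sqle in high-fat control offspring). Depth is unknown, and 3 libraries a group limit the single times.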
